A study of Homo sapiens with 18 samples.

Results

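A set of 9 transcription factors that mark the luminal epithelial lineage of the breast were followed in ZR751 (ZR75-1) cells, an ER+ breast cancer line, with and without knockdown of MLL3 (gene symbol KMT2C). The 9 genes were *ESR1*, *FOXA1*, *GATA3*, *XBP1*, *SPDEF*, *TFAP2A*, *TFAP2C*, *ELF3* and *GRHL2*, chosen by name, and each matched exactly 1 of the 23500 rows of the RNA-seq table. In ZR751shMLL3 cells an integrated lentiviral vector expresses a hairpin that targets *MLL3*, and the control ZR751shLucif cells express a luciferase hairpin. Both are GFP-sorted pools of the same parental line, each with a single hairpin, so a change in ZR751shMLL3 cannot be told apart from an effect particular to that hairpin or pool. RNA-seq and ChIP-seq for H3K4me1, ERα and SP1 were available with 2 libraries per cell line and assay, which the study describes as biological replicates.

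Luminal cells line the milk ducts, and most ER+ breast cancers keep their expression program. ERα, encoded by *ESR1*, is a nuclear receptor that binds DNA when estrogen is present. FOXA1 is a pioneer factor that opens chromatin at enhancers where ERα binds, and GATA3 is a zinc-finger factor that works with both. MLL3 is a methyltransferase that places a single methyl group on lysine 4 of histone H3 (H3K4me1), a mark of enhancers, while SP1 is a widely expressed factor that binds GC-rich promoters.

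Several properties of the libraries bear on the values given here. *KMT2C* itself was measured at 1.07 and 2.69 FPKM (fragments normalised to transcript length and to the size of the library, so that the read depth behind a value is unknown) in the ZR751shMLL3 libraries and at 2.34 and 6.77 FPKM in the ZR751shLucif libraries, a log2 difference of -1.02 ± 0.54 (SE) that did not pass the test (limma, adjusted p = 0.629). The cell lines overlapped, since ZR751shMLL3 replicate 2 lay above ZR751shLucif replicate 1, so these libraries do not by themselves check the label, and the libraries are named by their labels throughout. The ZR751shLucif replicate 1 RNA library stood apart, with correlations of 0.900 to 0.907 with the other libraries, whose highest correlations were 0.955 to 0.969. The 12 luminal epithelial markers examined were all expressed, whereas 13 of 16 basal or mesenchymal markers all 4 blood markers and 5 of 6 stromal markers were below 1 FPKM in all 4 libraries. The basal keratin genes *KRT5* and *KRT14* did not exceed 0.101 FPKM. The exceptions were *TWIST1* at 6.75 to 10.8 FPKM, *ACTA2* at 1.65 to 3.71 FPKM, *FOXC1* at 0.791 to 2.07 FPKM and the stromal *COL1A1* at 13.1 to 17.8 FPKM. In the ChIP-seq lists, which hold 156481 to 300000 relaxed peaks, the ZR751shMLL3 replicate 1 H3K4me1 list had 28599 peaks at an FDR of 0.01 or less against 109586 to 192201 in the other H3K4me1 lists, and both ZR751shLucif SP1 lists had 0. The ZR751shMLL3 replicate 2 SP1 list stood apart more strongly, because 39.0% of all expressed genes had one of its 20000 top-ranked peaks over their start site against 1.93% to 2.59% for the other SP1 lists.

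All 9 factors were expressed in every library, and their levels spanned 2 orders of magnitude. *XBP1* was the most abundant, at 1282 ± 169 FPKM (SD over the 4 libraries), which placed it at the 99.5th percentile of the 11134 genes tested. *SPDEF* followed at 356 FPKM and *GATA3* at 204 FPKM, and the ranges of these 2 genes over the 4 libraries overlapped. *ELF3* at 126 FPKM and *FOXA1* at 111 FPKM also overlapped. *TFAP2A* at 42.6 FPKM and *TFAP2C* at 32.9 FPKM were again not separated by their spread. *GRHL2* at 20.2 FPKM and *ESR1* at 12.1 FPKM were lowest, with ranges that did not overlap, so the gene for the receptor that defines these cells stood only at the 48.0th percentile.

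**Figure D1:**
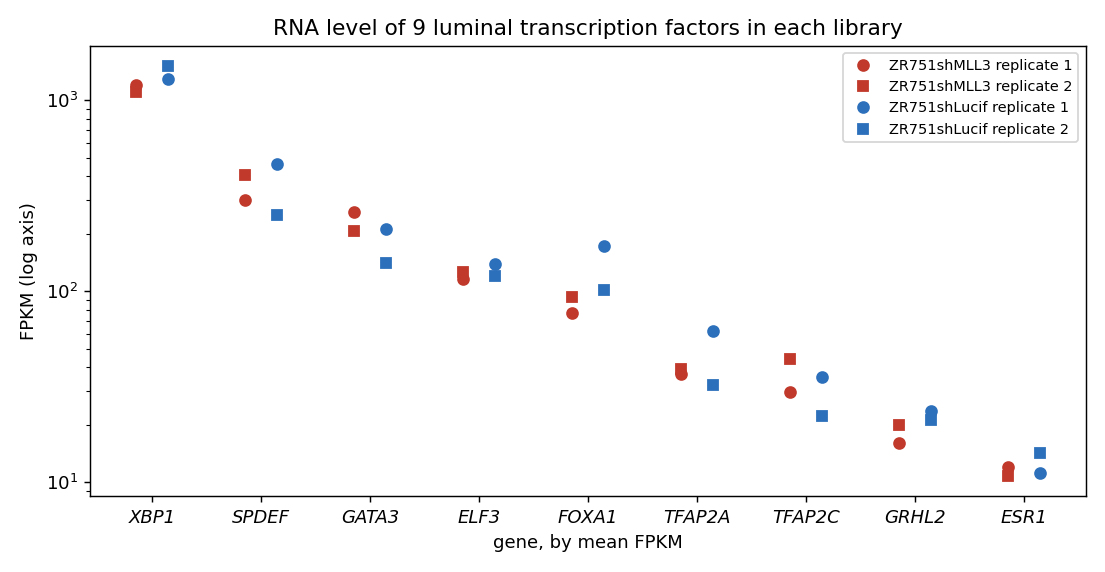
FPKM on a log axis of the 9 genes, ordered by mean, in the 2 ZR751shMLL3 libraries (red) and the 2 ZR751shLucif libraries (blue), with circles for replicate 1 and squares for replicate 2. *XBP1* lies between 1112 and 1507 FPKM and *ESR1* between 10.8 and 14.2 FPKM.

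No member passed the test between the cell lines. With limma on log2(FPKM + 0.5), 1 of 11134 genes (0.00898%) had an adjusted p under 0.05, and it was a small nucleolar RNA rather than a member. Of the 9 members, 3 had a positive and 6 a negative log2 difference, with a median of -0.14 beside -0.10 for all genes tested. The negative share was 66.7%, near the 59.1% of all genes tested. None of the 9 reached an unadjusted p of 0.05, where 3.67% of all genes did so with a higher and 4.31% with a lower level in ZR751shMLL3. These values come from bulk RNA, in which fewer cells of a type and less RNA per cell cannot be told apart.

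**Figure D2:**
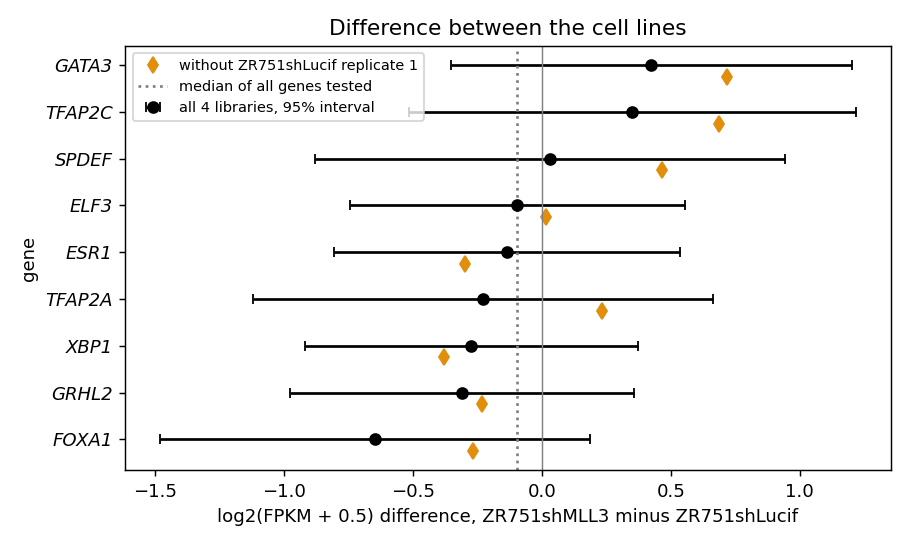
Difference of log2(FPKM + 0.5), ZR751shMLL3 minus ZR751shLucif, for each gene with its 95% interval from limma (black, n = 2 per cell line), the same difference without ZR751shLucif replicate 1 (orange), and the median of all genes tested (dotted). Every interval includes 0, from *FOXA1* at -0.65 to *GATA3* at 0.42.

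*ESR1* (chr6:151977826-152450754, plus strand, hg19) was measured at 12.1 and 10.8 FPKM in the ZR751shMLL3 libraries and at 11.2 and 14.2 FPKM in the ZR751shLucif libraries. The libraries of the 2 cell lines overlapped. The log2 difference was -0.14 (95% interval -0.81 to 0.54, limma, adjusted p = 0.875). Its sign turned to 0.039 once the trend with GC content was removed.

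*FOXA1* (chr14:38058757-38065264, minus strand) had the largest difference of the 9. It was measured at 76.8 and 93.7 FPKM in ZR751shMLL3 and at 173 and 102 FPKM in ZR751shLucif, with the highest value in the library that stood apart. The means were 85.3 ± 11.9 and 138 ± 50.2 FPKM (SD, n = 2 each), and the groups did not overlap. The log2 difference was -0.65 ± 0.34 (SE, limma, adjusted p = 0.629). It shrank to -0.27 without ZR751shLucif replicate 1 and grew to -1.03 without ZR751shLucif replicate 2, so 1 control library decided its size. Removal of 1 surrogate variable, a step of the kind the study used, left the difference at -0.65 and brought its adjusted p to 0.040 (limma). In that fit, where the spread between replicates was reduced by construction, 3636 of the 11134 genes tested passed. *FOXA1* was the only member among them. Exons of *TTC6* lie on the opposite strand of *FOXA1*, and the strand setting of the counting is not given in the sources used here. The same holds for *TFAP2A*, *ELF3* and *GRHL2*, which other exons overlap on the opposite strand. Exons of *ESR1* and *ELF3* are also overlapped on the same strand. The 3 genes closest to *FOXA1* in their centred log2 values over the 4 libraries were *NOA1*, *FAM114A1* and *AK3*, at Euclidean distances of 0.016, 0.045 and 0.049.

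*GATA3* (chr10:8087341-8117161, plus strand) was the member with the highest positive difference. It was measured at 259 and 206 FPKM in ZR751shMLL3 and at 212 and 140 FPKM in ZR751shLucif. Only the second control library fell clearly below the rest, and the groups overlapped. The log2 difference was 0.42 ± 0.32 (SE, limma, adjusted p = 0.689), and it ran from 0.13 without ZR751shLucif replicate 2 (limma, adjusted p = 0.760) to 0.72 without ZR751shLucif replicate 1 (adjusted p = 0.245).

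*TFAP2A* and *TFAP2C* encode the AP-2α and AP-2γ factors, of which AP-2γ is known to bind regulatory DNA of *ESR1*. *TFAP2A* (chr6:10393419-10419892, minus strand) was measured at 36.8 and 39.4 FPKM in ZR751shMLL3 and at 61.8 and 32.3 FPKM in ZR751shLucif, so the control libraries lay on both sides of the ZR751shMLL3 libraries. Its log2 difference of -0.23 became 0.23 without ZR751shLucif replicate 1. *TFAP2C* (chr20:55204362-55214339, plus strand) was measured at 29.6 and 44.0 FPKM in ZR751shMLL3 and at 35.8 and 22.2 FPKM in ZR751shLucif, a log2 difference of 0.35 ± 0.36 (SE, limma, adjusted p = 0.757). Its size rested on single libraries, at 0.012 without ZR751shLucif replicate 2, 0.069 without ZR751shMLL3 replicate 2, 0.63 without ZR751shMLL3 replicate 1 and 0.69 without ZR751shLucif replicate 1. The points of the 2 cell lines interleaved for both genes.

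The remaining epithelial factors moved little relative to their spread. *SPDEF* (chr6:34505579-34524110, minus strand), an ETS factor of luminal and secretory cells, was measured at 301 and 404.9 FPKM in ZR751shMLL3 and at 463 and 253 FPKM in ZR751shLucif, and its log2 difference was 0.030. *ELF3* (chr1:201977073-201986311, plus strand), an ETS factor of epithelia, had its 4 values between 116 and 140 FPKM and a log2 difference of -0.10. *GRHL2* (chr8:102504667-102681954, plus strand), a grainyhead factor that maintains epithelial junction genes, was measured at 16.1 and 19.9 FPKM in ZR751shMLL3 and at 23.6 and 21.1 FPKM in ZR751shLucif. Both ZR751shMLL3 libraries of *GRHL2* were below both controls, with a log2 difference of -0.31 ± 0.28 (SE, limma, adjusted p = 0.724).

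*XBP1* (chr22:29190543-29196585, minus strand) encodes a bZIP factor of the unfolded protein response that becomes active when its RNA is spliced in the cytoplasm, and gene-level FPKM do not separate the spliced form. It was measured at 1207 and 1112 FPKM in ZR751shMLL3 and at 1302 and 1507 FPKM in ZR751shLucif. The groups did not overlap, although the gap was small beside the level. The log2 difference was -0.27 ± 0.27 (SE, limma, adjusted p = 0.747).

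*FOXA1*, *XBP1* and *GRHL2* were thus the 3 of 9 members (33.3%) with both ZR751shMLL3 libraries below both controls, a share near the 25.3% of all genes tested. No member had both ZR751shMLL3 libraries above both controls, against 17.6% of all genes.

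Among 15 endoplasmic reticulum genes driven by XBP1, 7 had a positive and 8 a negative difference, with a median of -0.16, and none passed the test. *CRELD2* and *SDF2L1*, which assist protein folding, had the highest log2 differences, at 0.61 and 0.55, and the vesicle coat gene *SEC24D* and the translocon-associated *SSR1* the lowest, at -0.48 and -0.47. Without ZR751shLucif replicate 1 the median was 0.075.

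Other transcription factors tied to luminal epithelium leaned lower. Of 15 listed, 14 were tested. Of these, 11 (78.6%) had a negative and 3 a positive log2 difference, while 59.1% of all genes tested were negative. The median was -0.47 beside -0.10 for all genes tested, though none of the 14 passed the test after adjustment. *CITED2*, a transcriptional coregulator, was measured at 11.5 and 21.5 FPKM in ZR751shMLL3 against 84.8 and 45.9 FPKM in ZR751shLucif, a log2 difference of -1.95 ± 0.43 (SE, limma, adjusted p = 0.418). *MYB*, an estrogen-responsive proto-oncogene, was measured at 4.32 and 4.84 FPKM against 8.82 and 9.51 FPKM, a difference of -0.93 ± 0.26 (SE, limma, adjusted p = 0.513). The highest differences were those of *RARA* at 0.44 and *TRPS1* at 0.30. Without ZR751shLucif replicate 1, 12 of the 14 (85.7%) were negative, beside 48.5% of all genes. The median was then -0.28, while the median of all genes was 0.015. With the GC trend removed, 11 of the 14 (78.6%) were negative, beside 49.7% of all genes, and the median was -0.31. These lists were drawn up with results of these data known, so their direction is not independent evidence.

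Paralogs of the members ranged from absent to the level of the lower members. Of 16 listed, 9 were tested and 6 were below 1 FPKM in all 4 libraries. *TFAP2B*, at 32.2 to 63.1 FPKM, and *FOXA3*, at 22.2 to 37.0 FPKM, were the highest and were named after their values were seen, and *GATA1* and *TFAP2D* were listed at 0 in every library. *ESR2*, which encodes ERβ, did not exceed 0.065 FPKM. Among the 9 tested paralogs, 5 had a positive and 4 a negative difference, with a median of 0.051. The extremes were *GRHL3* at 0.63 and *ELF4* at 0.32, and *ELF1* at -0.64 and *TFAP2B* at -0.48. No paralog passed the test after adjustment (limma). The luminal epithelial markers were divided evenly, with 6 positive and 6 negative of 12. *AGR2*, a secretory-pathway disulfide isomerase, lay at -1.27 and *MLPH* at -0.41, whereas *CLDN3* lay at 0.67 and *KRT18* at 0.60, and none passed the test. Without ZR751shLucif replicate 1, 9 of the 12 were positive, with a median of 0.18, and 25% were negative beside 48.5% of all genes. The summed level of the 12 markers ran from 6665 to 12722 FPKM in the other 3 libraries and to 15807 FPKM in ZR751shLucif replicate 1. The part of marker levels in the members' values was not tested.

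ChIP-seq was then examined within 100 kb of each gene body. Since the lists differ in length and threshold, the 20000 top-ranked peaks of each library were compared, ranked by the peak caller's signal. An equal number per library removes any genome-wide difference in peak number, so these counts cannot show such a loss or gain. The comparison of 2 libraries with 2 has 6 arrangements, and its smallest exact p is 0.3333, so no such comparison could pass 0.05.

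Near the 9 genes, 49 and 75 H3K4me1 peaks lay in the ZR751shMLL3 libraries and 88 and 82 in the ZR751shLucif libraries. Every ZR751shMLL3 value was below every control value (exact permutation test, two-sided, p = 0.333). Over 10596 expressed genes the mean count per gene had the same order, at 2.25 and 2.13 against 2.39 and 2.34. Among the 50000 top-ranked peaks the cell lines overlapped, at 130 and 168 against 160 and 183 (exact permutation test, two-sided, p = 0.667). With all peaks at an FDR of 0.01 or less, whose number differs between the lists, the counts were 79 and 298 against 402 and 533, a difference of means of -279 in place of -23 (exact permutation test, two-sided, p = 0.333). Among the 20000 top-ranked peaks, nearly all of the difference came from *GRHL2*, with 7 and 14 peaks in ZR751shMLL3 against 29 and 34 in ZR751shLucif. Without *GRHL2*, a step chosen after its values were seen, the totals were 42 and 61 against 59 and 48, with means of 51.5 and 53.5 that no longer separated the cell lines. This holds for equal numbers of peaks only, and the reproducible pairs given below differed in number at other members too.

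*GRHL2* was the only member whose H3K4me1 counts did not overlap between the cell lines. That is 1 of 9 (11.1%), close to the 9.39% of 10596 expressed genes with fewer peaks in both ZR751shMLL3 libraries, and no member was among the 8.42% with more. In absolute number, only 7 of the 10596 genes, *GRHL2* included, had a difference of -21 peaks or below. Such a difference needs at least that many control peaks, and the median gene had 1 peak per library. *GRHL2* stood at the 99.0th percentile by mean count, and no share was computed among genes with similar counts. The windows of the other 6 of the 7 genes did not overlap that of *GRHL2*, but most of these genes lay on one chromosome arm. *GPATCH2*, *IRF2BP2*, *NIBAN1*, *OPN3* and *SIPA1L2* lay within chr1:184759858-241840678, and *RAD9A* lay on chromosome 11. Control means were 42.0 to 56.5 peaks at these 6 genes and 31.5 at *GRHL2*. The counts at *GRHL2* were also apart for the 5000 top-ranked peaks, at 2 and 3 against 9 and 16, and for the 50000 top-ranked, at 24 and 31 against 45 and 75. The lower ZR751shMLL3 value belonged to replicate 1, the list with few peaks at an FDR of 0.01, yet replicate 2 alone, with 14, also lay below both controls. Of 36 H3K4me1 loci merged over the 4 libraries there, 7 were found in both controls and in neither ZR751shMLL3 library, and 0 the other way round. The 36 loci ran from 100 kb upstream, through the introns, into the neighbouring *NCALD*, where at this rank all 5 loci were found in control libraries only.

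Among the 20000 top-ranked peaks, the counts of the other 8 members overlapped between the cell lines, while the members differed in how much H3K4me1 they carried. *ELF3* had 15 and 19 peaks in ZR751shMLL3 and 27 and 18 in ZR751shLucif, and its mean count stood at the 98.9th percentile of all genes. *FOXA1* had 12 and 13 against 13 and 9, and *XBP1* 8 and 9 against 9 and 5. *GATA3*, in contrast, had 1 and 2 against 1 and 1, although it was the third most abundant of the 9 RNAs. *ESR1*, with the longest gene body of the 9 (472929 bp), had 1 and 8 against 3 and 6. *SPDEF*, *TFAP2A* and *TFAP2C* had between 0 and 4 peaks in every library.

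A total of 134 H3K4me1 loci lay near the 9 genes, of which 6 were found in all 4 libraries, 5 of them at *ELF3* and 1 at *XBP1*. The best-ranked was 76 kb downstream of the *ELF3* start site (chr1:202054617-202056404), at ranks 65 and 389 in ZR751shMLL3 and 1254 and 3238 in ZR751shLucif. The *XBP1* locus lay 21 kb upstream of its start site (chr22:29217553-29218931). Only *SPDEF* had an H3K4me1 peak of this rank over its canonical start site, at rank 2474 in ZR751shLucif replicate 2, and over all genes the share was 0.0378% to 0.245% per library.

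Peaks were paired between replicates at an irreproducible discovery rate (IDR) of 0.1 or less, the study's threshold for true replicates of this mark. By this measure 47 reproducible H3K4me1 peaks lay near the 9 genes in ZR751shMLL3 and 123 in ZR751shLucif, of 13242 and 31677 in the genome. *GRHL2* had 9 and 39, *ELF3* 15 and 31, *FOXA1* 10 and 24, *SPDEF* 2 and 7, and *ESR1* 1 and 6. With one list per cell line no test applies, and the order follows the genome-wide numbers.

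**Figure D3:**
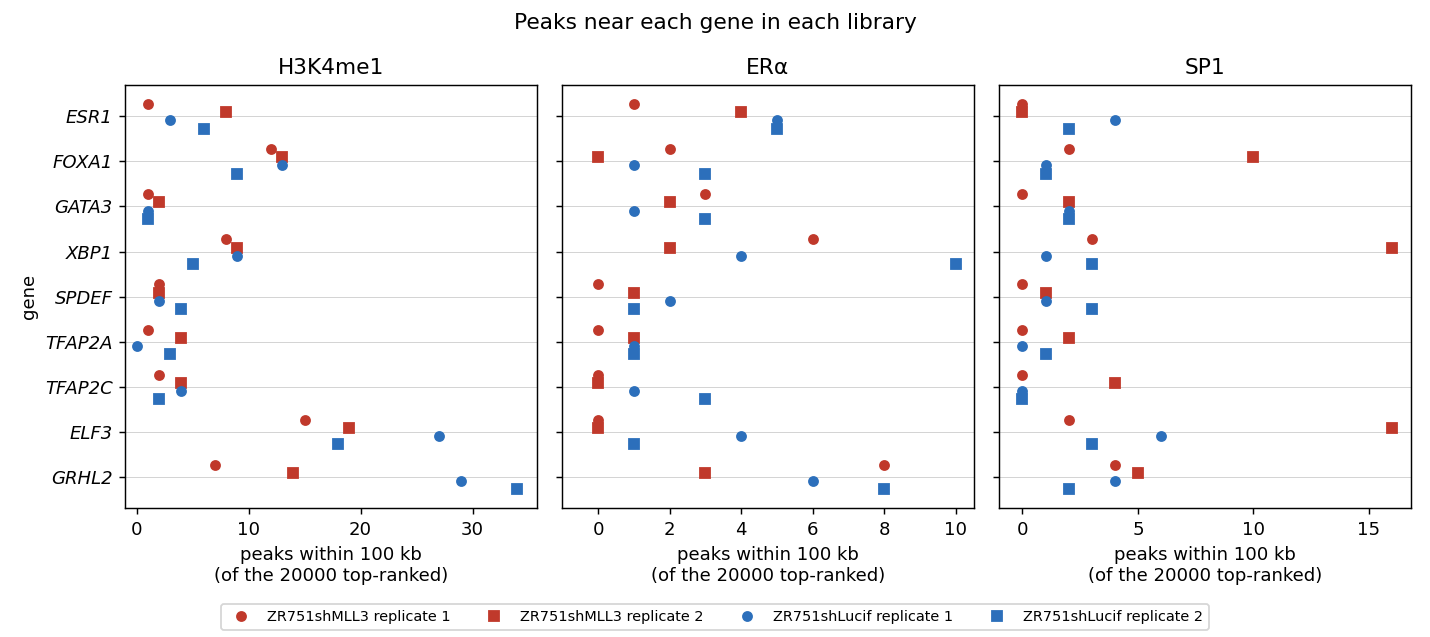
Number of the 20000 top-ranked peaks of each library within 100 kb of each gene for H3K4me1, ERα and SP1 (x axes differ between panels), with red for ZR751shMLL3 and blue for ZR751shLucif, circles for replicate 1 and squares for replicate 2. The H3K4me1 counts at *GRHL2* are 7 and 14 against 29 and 34, and the SP1 counts of ZR751shMLL3 replicate 2 reach 16 at *XBP1* and *ELF3*.

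For ERα, 20 and 13 peaks lay near the 9 genes in ZR751shMLL3 and 25 and 35 in ZR751shLucif. The groups did not overlap (exact permutation test, two-sided, p = 0.333), and they did not overlap without *GRHL2* either, at 12 and 10 against 19 and 27. They overlapped with all peaks at an FDR of 0.01 or less, at 6 and 22 against 108 and 19 (exact permutation test, two-sided, p = 0.667), where the ERα lists held from 764 to 98579 peaks. *ESR1* had 1 and 4 peaks against 5 and 5, *ELF3* 0 and 0 against 4 and 1, and *TFAP2C* 0 and 0 against 1 and 3. These were the 3 of 9 members (33.3%) with fewer ERα peaks in both ZR751shMLL3 libraries, beside 8.19% of all genes. None had more in both, beside 5.03% of all genes. At these counts a single peak decides whether the groups overlap. Only a gene with a peak in both controls can have fewer. The share of all genes with a peak was 71.7% in ZR751shLucif replicate 1 and 56.3% in replicate 2.

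*GRHL2* and *XBP1* were the members with the most ERα peaks, at the 97.7th and 96.9th percentile of all genes by mean count. *GRHL2* had 8 and 3 peaks in ZR751shMLL3 against 6 and 8 in ZR751shLucif, and *XBP1* 6 and 2 against 4 and 10. Agreement between libraries was low, since 65 of the 71 merged ERα loci near the members were found in 1 library only. One locus was found in all 4, upstream of *XBP1*. The remaining 5 were 2 further loci at *XBP1* and 1 each at *GRHL2*, *GATA3* and *ESR1*.

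The *XBP1* locus lay 13 kb upstream of the start site in intergenic sequence (chr22:29209613-29210437). Its ranks were 142 and 389 in ZR751shMLL3 and 1313 and 74 in ZR751shLucif, the best of any ERα peak near the 9 genes in ZR751shMLL3 replicate 1 and ZR751shLucif replicate 2. In ZR751shMLL3 replicate 2 the best-ranked peak near a member was at *ESR1*, 173 kb downstream of the canonical start site (rank 287), and in ZR751shLucif replicate 1 it was the *XBP1* locus 22 kb upstream (rank 547). The study's supplement names several IDR thresholds for ERα and for SP1. Those for true replicates and those given with its plots of the replicates are used here. For ERα at an IDR of 0.7 or less, 5 reproducible pairs lay near the members in ZR751shMLL3 and 4 in ZR751shLucif. *XBP1* held 1 and 2 of them, *GRHL2* 3 and 2, and *ESR1* 1 and 0. At 0.2 or less, the threshold given with the plot, added after the data were seen, 2 pairs were left in each cell line.

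ERα binds the estrogen response element, whose arms GGTCA and TGACC are separated by 3 bases. Stretches reaching 100 bases to either side of 3 ERα summits are shown (hg19, plus strand) because they differ in this element: the *XBP1* locus of all 4 libraries, and the *ESR1* and *GATA3* loci, each found in 1 library of either cell line. Capitals mark every arm that matches in either orientation, and both arms of a pair with at most 1 mismatch in its 10 letters.
XBP1 chr22:29209796-29209996: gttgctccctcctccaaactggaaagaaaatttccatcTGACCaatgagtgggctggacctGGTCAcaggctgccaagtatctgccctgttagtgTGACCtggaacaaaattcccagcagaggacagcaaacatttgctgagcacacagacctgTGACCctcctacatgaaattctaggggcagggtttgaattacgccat
ESR1 chr6:151979296-151979496: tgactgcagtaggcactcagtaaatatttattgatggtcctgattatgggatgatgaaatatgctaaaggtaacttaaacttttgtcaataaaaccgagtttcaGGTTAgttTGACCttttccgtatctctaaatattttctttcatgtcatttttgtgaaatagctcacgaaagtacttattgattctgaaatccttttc
GATA3 chr10:8170299-8170499: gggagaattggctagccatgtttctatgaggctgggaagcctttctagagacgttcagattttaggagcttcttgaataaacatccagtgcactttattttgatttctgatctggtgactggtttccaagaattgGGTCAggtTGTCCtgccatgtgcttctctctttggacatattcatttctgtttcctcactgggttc

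The *XBP1* window held 4 separate arms and no pair at the 3-base spacing, even with 1 mismatch. A number of arms this high was uncommon, at 2.44% of the 164 loci that all 4 ERα libraries shared in the genome. The *ESR1* window, in an intron 149 kb upstream of the canonical start site (ranks 517 and 228 in the libraries that held it), and the *GATA3* window, 74 kb downstream in intergenic sequence (ranks 342 and 393), each held 1 pair with 1 mismatch. An exact pair was found in the *GRHL2* locus, in an intron 23 kb downstream of the start site and held by 3 libraries (ranks 337, 10753 and 601). The other *XBP1* loci, 19 and 22 kb upstream, held no pair and no arm.

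Over the genome, a pair with at most 1 mismatch was present in 80.5% of the 164 ERα loci shared by 4 libraries, 60.7% of the 244 shared by 3, 12.8% of the 1663 shared by 2 and 0.691% of the 72894 found in a single library. Near the members, 3 of the 65 single-library loci held such a pair. The *XBP1* locus of 4 libraries was thus among the shared loci without the element. The match is a description of these letters only.

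**Figure D4:**
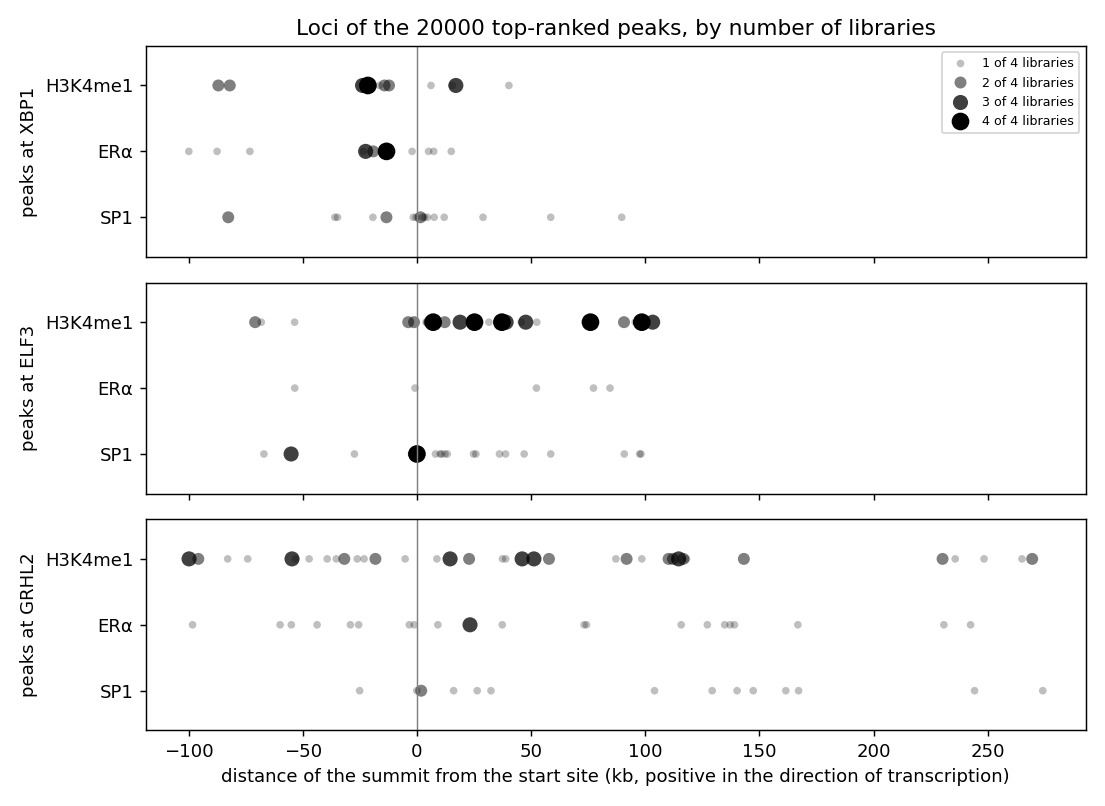
Summits of merged loci of the 20000 top-ranked peaks around *XBP1*, *ELF3* and *GRHL2*, by distance from the canonical start site in kb, for H3K4me1, ERα and SP1, with larger and darker points for loci found in more of the 4 libraries of a mark. The ERα locus of 4 libraries lies 13 kb upstream of *XBP1*, and the SP1 locus of 4 libraries at the *ELF3* start site.

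Near the same genes, 11 and 56 SP1 peaks lay in ZR751shMLL3 and 19 and 17 in ZR751shLucif. The ZR751shMLL3 replicates lay on either side of the controls (exact permutation test, two-sided, p = 1), and without ZR751shMLL3 replicate 2 the difference of means turned from 15.5 to -7. With all peaks at an FDR of 0.01 or less the order differed, at 188 and 41 against 0 and 0 (p = 0.333 in the same exact test), where replicate 1 was the higher and the ZR751shLucif lists held no peak at all. At this FDR the ZR751shMLL3 replicate 1 list kept 204178 of its 209985 relaxed peaks, so it was hardly filtered, and replicate 2 kept 12065. *FOXA1* had more SP1 peaks in both ZR751shMLL3 libraries, at 2 and 10 against 1 and 1, as had 17.7% of all genes. *ESR1* had fewer, at 0 and 0 against 4 and 2, as had 3.15% of all genes. *XBP1* had 3 and 16 against 1 and 3, and *ELF3* 2 and 16 against 6 and 3, with the high value again in ZR751shMLL3 replicate 2, the library in which start sites were covered most often.

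Among the 20000 top-ranked SP1 peaks, only *ELF3* and *GRHL2* had one over the canonical start site. That of *GRHL2* was in ZR751shMLL3 replicate 2 only, at rank 3855. The start site of *ELF3* carried the most repeatable SP1 signal. Its locus (chr1:201979395-201979982), 14 bases from the canonical start, was found in all 4 libraries, at ranks 181 and 607 in ZR751shMLL3 and 820 and 15958 in ZR751shLucif. It lies in the first exon of a longer *ELF3* transcript and overlaps an exon of the antisense *ELF3-AS1*. The RefSeq *ELF3* promoter there held no GC box, the letters GGGCGG on either strand that SP1 is known to bind. Over the genome, 71.4% of the 112 SP1 loci shared by 4 libraries held a GC box within 100 bases of the summit, as did 5.80% of the 72790 loci of a single library.

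Some of the best SP1 peaks within the windows lay at start sites of other genes. The locus 55 kb upstream of *ELF3*, found in 3 libraries, was 30 bases from the start of *TIMM17A*, and the locus 83 kb upstream of *XBP1*, found in 2, was 353 bases from the start of *ZNRF3*. The best SP1 peak at *FOXA1* (rank 1711, ZR751shMLL3 replicate 2) lay 449 bases from the start of *TTC6* and at -829 bases from that of *FOXA1*. Of 85 merged SP1 loci near the members, 10 lay within 1 kb of a start site, 5 of them that of a gene other than the member. For SP1 at an IDR of 0.5 or less, 7 reproducible pairs lay near the members in ZR751shMLL3 and 1 in ZR751shLucif, the latter at *ELF3*. At 0.05, the threshold given with the study's plot, there were 1 and 0.

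An SP1 peak lay also at the *XBP1* ERα locus described above. It had ranks 7633 and 5271 in the ZR751shMLL3 libraries, and in ZR751shLucif no overlapping peak was among the 20000 top-ranked, with rank 198587 in replicate 1 and no listed peak in replicate 2. Within the *XBP1* gene, an exonic locus 1.6 kb from the start site (chr22:29194711-29195210) had ranks 1103 and 6556 in ZR751shMLL3 and no listed peak in ZR751shLucif. Because the lists of the 2 cell lines differ in quality, these ranks are descriptions of single sites.

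Promoters of the members were compared with all 35116 promoters of the same length in RefSeq (GRCh38.p14, located in hg19 by exact match), of which 45.0% held a GC box. Of 19 promoters listed for 7 members, 9 held one: 4 of 6 at *GATA3*, 2 of 6 at *ESR1*, 2 of 2 at *XBP1* and 1 of 1 at *FOXA1*. *TFAP2C* and *GRHL2* were not listed. A *GATA3* promoter with 5 GC boxes was covered by an SP1 peak in ZR751shMLL3 replicate 2 only, at rank 4965. Its 213 bases before the first exon are shown (hg19, plus strand) as the promoter richest in boxes under an SP1 peak, overlapping an exon of the antisense *GATA3-AS1*, with the 4 boxes in that stretch in capitals.
GATA3 chr10:8095354-8095566: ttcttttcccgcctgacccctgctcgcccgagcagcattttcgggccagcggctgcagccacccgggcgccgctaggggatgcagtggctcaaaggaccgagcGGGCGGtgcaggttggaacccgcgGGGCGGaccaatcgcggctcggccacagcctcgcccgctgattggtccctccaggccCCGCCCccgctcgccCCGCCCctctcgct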

How the data were processed

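RNA-seq (4 libraries) and ChIP-seq (12 peak lists) of ZR751shMLL3 and ZR751shLucif cells were analysed, with 2 libraries per cell line and assay, of 18 samples in the series. The 2 input libraries were not analysed here. Per the labels and the study's methods, the authors made stranded total RNA libraries, aligned reads to hg19 with TopHat2 2.0.13 and deposited FPKM values from Cufflinks 2.2.1 and Cuffnorm 2.2.1. For ChIP-seq, the submitters' processing notes name BWA 0.7.5a-r405, Picard 1.126 and FastQC 0.11.4. The authors called relaxed peaks with SPP against the input of each cell line and deposited each peak's signal and the −log10 of its FDR, per library and without pooling.

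Rows were matched to symbols by RefSeq accession (22890 of 23500). Genes with a mean log2(FPKM + 0.5) above 1 were tested with limma 3.58.1 in R 4.3.3, with Benjamini-Hochberg adjustment over 11134 genes. The 20000 peaks with the highest signal per library were counted within 100 kb of gene bodies (overlap of at least 1 bp) and compared by an exact two-sided permutation test in Python 3.11.15 with scipy 1.17.1. Reproducible pairs came from an IDR model written for this purpose, at the study's thresholds for true replicates (0.1 for H3K4me1, 0.7 for ERα and 0.5 for SP1). Loci are the 20000 top-ranked peaks of a mark merged over its 4 libraries. A locus not found in a library can still hold a lower-ranked peak there. Programs for limma and IDR were tested on simulated data. The study calls the 2 libraries of a cell line biological replicates, and each cell line is a single stable pool, so p-values measure the spread between these libraries only.

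The members, gene lists and tests were chosen with earlier results of these data known. All members were named, and of each further list at most 2 genes with the largest change each way, the 3 genes closest to the member with the largest change, the best-ranked peaks and those over start sites. Markers below 1 FPKM are named as examples chosen after their values were seen. The basal, mesenchymal and stromal markers that reached 1 FPKM in any library are all named. The lists were also run without ZR751shLucif replicate 1 and with the GC trend removed, and ERα pairs at an IDR of 0.2, all chosen after seeing the data. All columns of per-sample values were mapped to a sample.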

Additional observations from a re-analysis of the deposited data

How the results depend on the processing

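Of 99 recomputed log2 differences of the 9 members (11 alternatives each), 91 kept their direction and their side of the threshold, 7 changed sign and 1, *FOXA1* with 1 surrogate variable removed (limma, adjusted p = 0.040), passed it. The number of genes changed, 1 as reported, was 3636 of 11134 with the surrogate variable removed. It was 33 with the replicate block, 0 with no filter on low values and 0 with the GC content trend removed. With no filter and with the GC trend removed, 1861 and 701 genes respectively had an unadjusted p under 0.05 (limma). Removing the surrogate variable takes out the main part of the spread between replicates by construction, which narrows the errors. When single libraries were dropped, the count was 1269 without ZR751shLucif replicate 2, 4 without ZR751shMLL3 replicate 2 and 2 without either replicate 1 library. A lone library is then assumed to vary like the other cell line. The median of the members ran from -0.21 to 0.016, turning positive without ZR751shLucif replicate 1. With the GC trend removed, *ESR1* turned to 0.039 and *SPDEF* to -0.26. With libraries left out, *ESR1* ran from -0.30 to 0.029, *SPDEF* from -0.41 to 0.47, *TFAP2A* from -0.69 to 0.23, *ELF3* from -0.21 to 0.016, *GATA3* from 0.13 to 0.72, *TFAP2C* from 0.012 to 0.69, *FOXA1* from -1.03 to -0.27, *GRHL2* from -0.46 to -0.16 and *XBP1* from -0.38 to -0.17. The cause was not tested. Same-numbered RNA libraries share only a number (correlation of deviations 0.037), and the replicate block changed no member's call. For SP1 the difference in mean peak number ran from -7 to 38, reversed without ZR751shMLL3 replicate 2. The other 26 of 27 recomputed differences of the 3 marks kept their sign, though not their size. In some settings the order of the libraries changed, as for ERα and SP1 at an FDR of 0.01 and for H3K4me1 among the 50000 top-ranked. Reproducible pairs (ZR751shMLL3 and ZR751shLucif) were 29 and 82 for H3K4me1, 1 and 2 for ERα and 1 and 0 for SP1 at an IDR of 0.05, and 2 and 2 for ERα at an IDR of 0.2. Within 20 kb they were 15 and 48 for H3K4me1, 4 and 3 for ERα and 4 and 0 for SP1. At an FDR of 0.01 in both replicates they were 46 and 282 for H3K4me1, 3 and 5 for ERα, an order opposite to the 5 and 4 at an IDR of 0.7, and 9 and 0 for SP1. Among the 50000 top-ranked they were 59 and 82, 5 and 4, and 8 and 2. With 2 libraries per cell line, differences of the members below the width of their intervals could not be detected.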
